A study of Mus musculus with 8 samples.

Results

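The response of 13959 genes to 3MB-PP1 was compared between 2 lines of mouse E14 embryonic stem cells, of the strain 129/Ola. In the GSK3α line the gene for glycogen synthase kinase 3α was knocked out and the cells carried transgenic mutant GSK3alpha-L195G. In the GSK3β line the gene for the paralog GSK3β was knocked out and the cells carried transgenic mutant GSK3Beta-L132G. Both lines spent 6 h in serum-free N2B27 medium, after which 3MB-PP1 at 5 µM was added for 2 h or no inhibitor was added. This made 4 groups of 2 RNA sequencing libraries, written as αU1 and αU2 (GSK3α line, untreated), αI1 and αI2 (with inhibitor), and βU1, βU2, βI1 and βI2 for the GSK3β line. The labels name no change to the other paralog in either line, so each line also held an unaltered GSK3 gene. Each paralog was represented by 1 line, the labels name neither the promoter of the transgenes nor a vehicle for the untreated cells, and cells without a mutant kinase were not part of the comparison. An action of 3MB-PP1 on other proteins therefore cannot be told apart from its action on the mutant kinase.

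The difference in response is the change with 3MB-PP1 in the GSK3β line minus the change in the GSK3α line, on the scale log2(value + 1), where value is the scaled read count of a gene. A positive difference means a change that was more positive in the GSK3β line. It was tested for every gene with values in all 8 libraries and a mean of at least 1, which was 13959 of the 17488 genes with values and of the 48321 genes listed. Just inside this limit were Rbm46 (mean 1.0005, difference 0.32) and Vwa1 (1.0021, -0.35), and just outside were Ifitm5 (0.99924) and Tsga10ip (0.99808). A gene passed at an adjusted p under 0.05. Nearest to that limit were Rabep1 (0.04987) and Kirrel (0.04991) inside, and Hadh and Rrn3 (both 0.05003) outside. Of the genes listed, 0 had values in only part of the libraries, and the values held no zeros. A gene without values is therefore not shown to be absent from every library.

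GSK3α and GSK3β are closely related serine/threonine kinases that are active in resting cells and are switched off by many signals. In the absence of a Wnt signal they phosphorylate β-catenin, which marks it for destruction, and both also phosphorylate metabolic enzymes and transcription factors such as MYC. The mutations are of the analog-sensitive kind: they replace a bulky residue in the ATP pocket, so that a bulky inhibitor such as 3MB-PP1 can enter. In mouse embryonic stem cells, inhibition of GSK3 together with inhibition of the MEK kinases is known to hold cells in the naive state, the state of the early epiblast.

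The libraries held an estimated 21.5 to 32.4 M reads, and replicate libraries differed with an SD of 0.118 to 0.143 in log2 over genes. Nothing in the labels says that the replicates were separate cultures, so every p-value here reflects only how far such libraries scatter, which may be technical. Gsk3a had values of 155 and 160.0 untreated and 141 and 142 with 3MB-PP1 in the GSK3α line, and 77.9 and 76.2 untreated and 77.6 and 79.9 with 3MB-PP1 in the GSK3β line, and Gsk3b had 58.2 and 54.7 untreated and 52.7 and 55.3 with 3MB-PP1 in the GSK3α line, and 235 and 256 untreated and 258 and 249 with 3MB-PP1 in the GSK3β line. Each line thus held more RNA of the paralog it carried as a transgene, and these reads do not separate the transgene from the endogenous gene. In Gsk3a the difference in response was 0.19 ± 0.05 (SE, adjusted p = 0.0244), with a fall of 0.16 in the GSK3α line. Gsk3a did not pass without αU2, αI1, αI2, βI1 or βI2 (adjusted p up to 0.104). Gsk3b had a difference of 0.11 that did not pass (adjusted p = 0.322). Of a list of 25 naive pluripotency markers 25 had values, Pou5f1, Nanog and Sox2 among them. The call of Gsk3a also ended without the trend of the spread on the mean.

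Of 13959 genes, 911 (6.53%) differed in their response to 3MB-PP1 between the lines. The change was more positive in the GSK3β line for 506 (3.62%) and more negative for 405 (2.9%), and 136 differed by at least 1.5-fold. Most of these genes moved in the GSK3β line: 430 rose and 311 fell there past the threshold without passing in the GSK3α line. The change in the GSK3β line was the larger one in size for 785 of the 911 (86.2%). In the GSK3α line alone 14 rose and 12 fell past the threshold, 14 changed in the same direction in both lines by more in the GSK3β line, 9 passed in both lines in opposite directions, and 121 passed in neither line. In 686 of the 911 genes the changes had opposite signs in the lines, whether or not each passed. Selecting genes by the difference itself favours opposite signs, and no such share was taken over all tested genes. The count is therefore not a measure of opposite responses. Tested within each line, 123 genes passed in the GSK3α line (0.881%), where 0.265% of all tested genes rose and 0.616% fell. In the GSK3β line 2084 passed (14.9%), where 7.49% of all tested genes rose and 7.44% fell. Counts per line in the gene lists below share this imbalance between the lines. Counts of differences in those lists are to be read beside the 3.62% positive and 2.9% negative among all tested genes. Taken per treated library, the changes of the lines did not overlap in any of the 911 genes, which held for 65% of all tested genes. These tests and the difference share libraries, so they are not independent of each other.

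Across all tested genes, the changes in the lines, which share no libraries, had a Pearson r of 0.08 (n = 13959 genes, which are not independent replicates), and their SD was 0.111 in the GSK3α line and 0.171 in the GSK3β line. The 1046 genes that rose in the GSK3β line had a median change of 0.01 in the GSK3α line, and the 1038 that fell had a median of -0.02. The 86 genes that fell in the GSK3α line had a median of -0.17 in the GSK3β line, where 56 of them passed in one direction or the other. The 37 that rose in the GSK3α line had a median of 0.06 there, and 11 passed there.

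Leaving out 1 library at a time gave 353 to 1339 genes that differed. The count was more than 1.5 times lower without inhibitor replicate 1 of the GSK3β line (353), without either inhibitor replicate of the GSK3α line (450 and 472) and without untreated replicate 1 of the GSK3β line (566). In all, 299 genes passed whichever library was left out, 195 with a positive and 104 with a negative difference. The fit lets the spread of a gene depend on its mean level, and without that trend 133 genes passed, 125 of them among the 911. None of the 911 changed sign in any of these fits.

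**Figure D1:**
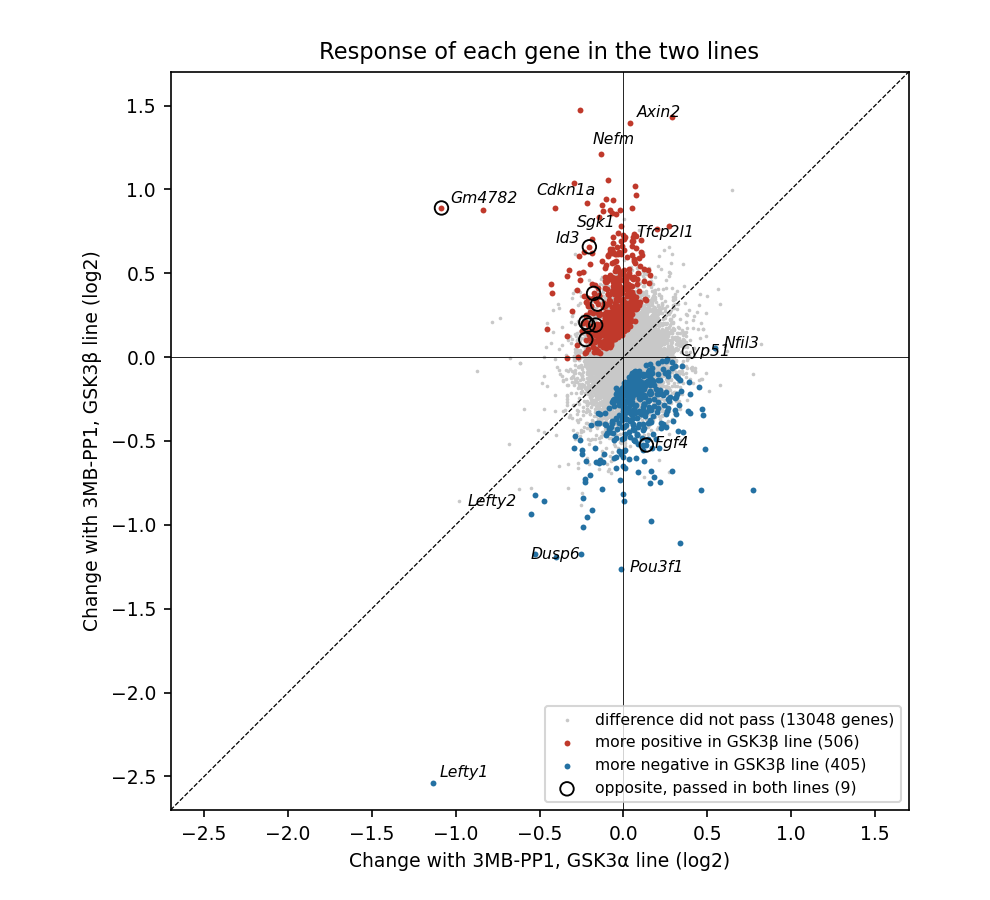
Change with 3MB-PP1 of each of the 13959 tested genes on the log2(value + 1) scale, in the GSK3α line (horizontal axis) and in the GSK3β line (vertical axis), as means of 2 libraries against 2. Red marks the 506 genes with a more positive and blue the 405 with a more negative change in the GSK3β line, black rings mark the 9 genes that passed in both lines in opposite directions, and the dashed line marks equal changes; the coloured points spread mainly along the vertical axis.

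The direct β-catenin targets Axin2, Tnfrsf19 and Sp5 rose in the GSK3β line, and their changes did not pass in the GSK3α line. Axin2 (chromosome 11, 108920349 to 108950783, mm10) encodes a scaffold of the β-catenin destruction complex and is a feedback target of the pathway in many tissues. Its values were 13.9 and 13.7 untreated and 14.5 and 13.9 with 3MB-PP1 in the GSK3α line, and 13.99 and 15.1 untreated and 38.4 and 41.3 with 3MB-PP1 in the GSK3β line. The GSK3β libraries with 3MB-PP1 lay above all the others, which overlapped. Its changes were 0.04 and 1.39, a difference of 1.35 ± 0.09 (SE, adjusted p = 5.2e-08). Tnfrsf19, a receptor of the TNF family that β-catenin induces, had 25.1 and 24.2 untreated and 26.5 and 25.5 with 3MB-PP1 in the GSK3α line, and 23.7 and 26.4 untreated and 49.9 and 49.9 with 3MB-PP1 in the GSK3β line. Here too the treated GSK3β libraries stood apart, with a difference of 0.89 ± 0.08 (SE, adjusted p = 9.27e-07). Sp5, a zinc finger repressor and Wnt target, was at low values of 0.801 and 0.595 untreated and 1.397 and 0.797 with 3MB-PP1 in the GSK3α line, and 0.156 and 0.256 untreated and 2.097 and 2.41 with 3MB-PP1 in the GSK3β line. Its difference was 1.14 ± 0.23 (SE, adjusted p = 0.0045), and it started lower in the GSK3β line. Without the treated GSK3β libraries the mean of Sp5 would be under the limit of 1. Its difference also passed with no filter on the mean. Of the differences that passed here, Axin2 and Tnfrsf19 also passed without the trend of the spread.

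Promoters of Sp5 and Tnfrsf19 are shown because both genes rose with the GSK3β mutant and hold the core letters read by TCF/LEF, the DNA-binding partners of β-catenin. The windows run from 250 bases before to 50 after the start of a gene (RefSeq, GRCm38.p6), in the gene's own direction. They lie at chr2:70474673-70474972 on the plus strand and chr14:61037938-61038237 on the minus strand, the latter being 1 of 2 windows of that gene. Capitals mark CTTTGAT or, read from the other strand, ATCAAAG, 104 and 202 bases before the start.
Sp5: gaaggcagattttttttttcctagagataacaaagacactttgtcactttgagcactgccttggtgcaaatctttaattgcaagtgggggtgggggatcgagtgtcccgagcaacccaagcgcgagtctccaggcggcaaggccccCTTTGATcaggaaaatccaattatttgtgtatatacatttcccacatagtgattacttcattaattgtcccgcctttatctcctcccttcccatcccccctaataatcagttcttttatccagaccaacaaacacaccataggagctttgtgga
Tnfrsf19: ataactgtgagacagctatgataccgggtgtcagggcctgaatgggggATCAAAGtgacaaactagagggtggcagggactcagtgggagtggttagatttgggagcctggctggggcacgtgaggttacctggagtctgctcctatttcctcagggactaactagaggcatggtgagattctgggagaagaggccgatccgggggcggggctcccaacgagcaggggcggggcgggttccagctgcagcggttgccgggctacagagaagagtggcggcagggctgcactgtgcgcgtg

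These letters, searched on both strands, were in 3.73% of all 32851 windows of the table and in the windows of 293 of the 10126 tested genes that had one (2.89%). Among the 430 genes that rose in the GSK3β line without passing in the GSK3α line, 298 had a window and 16 of these held the letters (5.37%). In the list of Wnt targets it was 2 of 10 genes with a window. A match is a description and not evidence of binding.

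Of the 17 tested Wnt/β-catenin targets 4 had a positive and 2 a negative difference, and 11 did not pass. Within the GSK3β line 4 of the targets rose and 4 fell past the threshold, against 0 and 2 in the GSK3α line. The median difference was 0.18, against -0.01 over all tested genes, with median changes of -0.03 in the GSK3α line and 0.10 in the GSK3β line. The positive differences were in Axin2, Tnfrsf19, Sp5 and Tcf7, a TCF factor with changes of -0.12 and 0.10. The negative ones were in Lef1, another factor of that family, which had 13.1 and 15.05 untreated and 12.3 and 12.95 with 3MB-PP1 in the GSK3α line, and 16.2 and 14.7 untreated and 9.54 and 9.65 with 3MB-PP1 in the GSK3β line, and in Myc, the growth regulator, which had 34.7 and 42.02 untreated and 26.3 and 28.1 with 3MB-PP1 in the GSK3α line, and 37.4 and 37.2 untreated and 20.1 and 20.1 with 3MB-PP1 in the GSK3β line. Myc fell in both lines, by 0.48 in the GSK3α line and by 0.86 in the GSK3β line, a difference of -0.38 ± 0.10 (SE, adjusted p = 0.0208). Among receptors, destruction complex members and co-repressors, 4 of 31 had a positive difference: Gsk3a, the co-repressors Tle1 (0.26) and Tle3 (0.20), and the kinase Csnk1e (0.20). That count was 0 without αI1, αI2, βI1 or βI2, 1 without αU2 or βU1, 2 without αU1 and 0 without the trend of the spread. Gsk3a did not pass without αU2, αI1, αI2, βI1 or βI2 (adjusted p up to 0.104), nor did Myc without αU1, αI2 or βI1 (0.109), nor did Lef1 without αU1, αI2, βU1 or βI1 (0.0714), nor did Tle3 without αU2, αI1, αI2, βU1, βI1 or βI2 (0.0939). Tle1 did not pass with any 1 library left out (adjusted p up to 0.156), nor did Csnk1e without αU1, αI1, αI2, βU1, βI1 or βI2 (0.178), nor did Tcf7 without αU2, αI1, αI2, βU1 or βI1 (0.2). Myc also did not pass on a square-root scale. Tle1 also did not pass with no filter on the mean. Csnk1e also did not pass with no filter on the mean, on a square-root scale or after quantile normalization. Without the trend of the spread, Axin2 and Tnfrsf19 passed and the others named here did not.

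**Figure D2:**
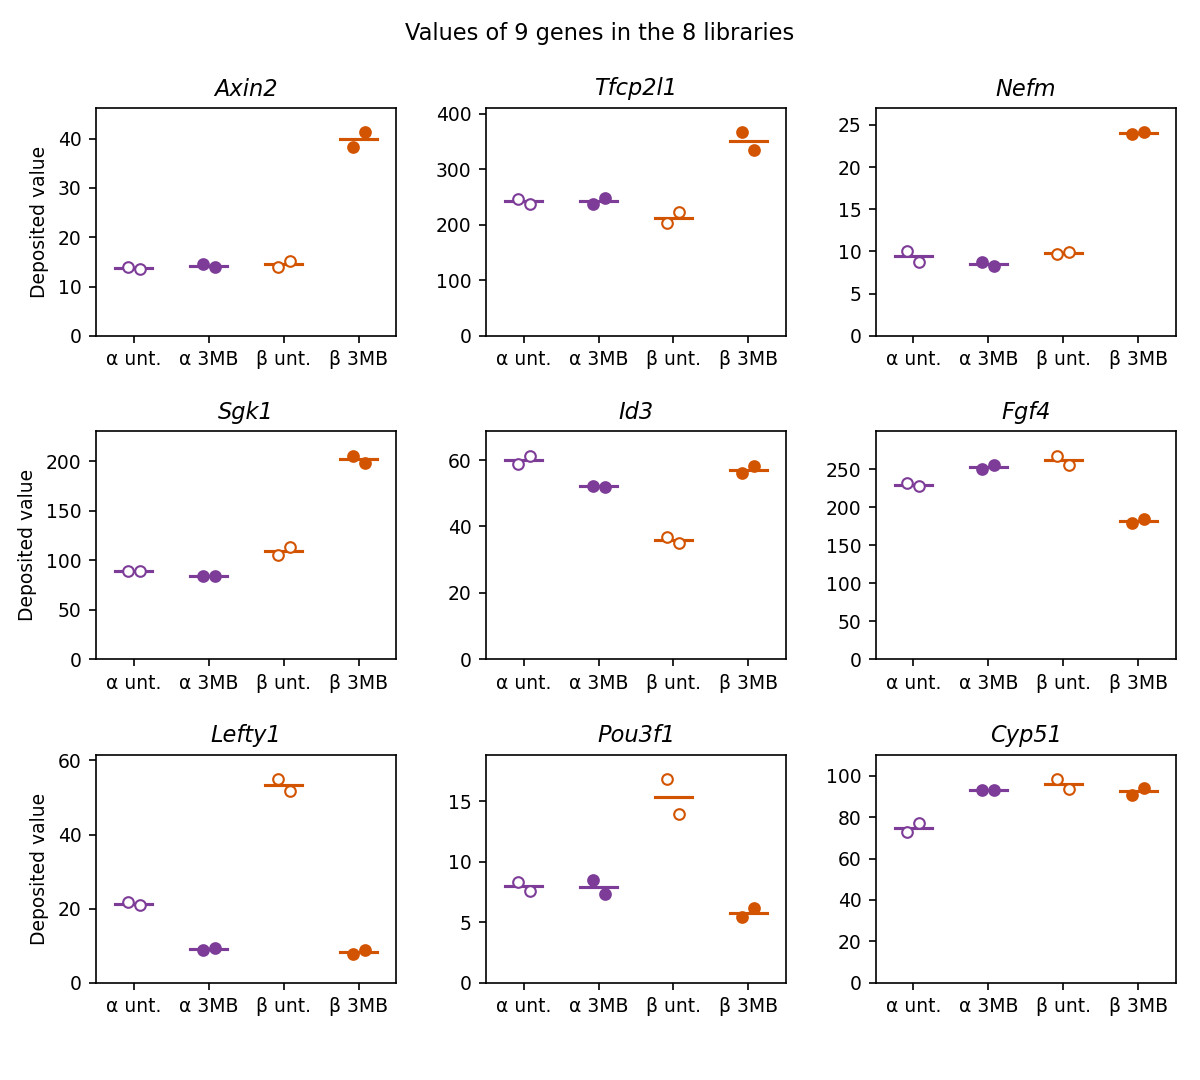
Deposited scaled values of 9 genes in the 8 libraries, with each point 1 library and each line the mean of the 2 libraries of a group (α unt. and β unt., untreated; α 3MB and β 3MB, 5 µM 3MB-PP1 for 2 h). Axin2, Tfcp2l1, Nefm and Sgk1 were highest in the treated GSK3β libraries, Id3 and Fgf4 moved in opposite directions in the lines, Lefty1 fell in both, Pou3f1 fell in the GSK3β line and Cyp51 rose in the GSK3α line.

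Of the 25 tested genes of the naive state 11 rose and 6 fell in the GSK3β line, against 1 and 3 in the GSK3α line. Over all tested genes, 7.49% rose and 7.44% fell in the GSK3β line, against 0.265% and 0.616% in the GSK3α line. Tfcp2l1, a factor that GSK3 inhibition and LIF are known to induce and that sustains self-renewal, had 246 and 238 untreated and 238 and 248 with 3MB-PP1 in the GSK3α line, and 203 and 223 untreated and 366 and 334 with 3MB-PP1 in the GSK3β line. The treated GSK3β libraries were the highest, although this line had started lower, and the difference of 0.71 ± 0.06 (SE, adjusted p = 7.03e-07) held in every alternative tried. Klf4, a Krüppel-like factor downstream of LIF and STAT3, had 139 and 141 untreated and 146 and 146 with 3MB-PP1 in the GSK3α line, and 128 and 128 untreated and 197 and 189 with 3MB-PP1 in the GSK3β line (difference 0.53 ± 0.05, SE, adjusted p = 6.16e-07). Klf2, a relative of Klf4 restrained by ERK signalling, had 123 and 122 untreated and 124 and 126 with 3MB-PP1 in the GSK3α line, and 129 and 129.8 untreated and 189.8 and 184 with 3MB-PP1 in the GSK3β line (difference 0.49 ± 0.05, SE, adjusted p = 1.1e-06). In Tfcp2l1, Klf4 and Klf2 the changes in the GSK3α line were 0.01, 0.06 and 0.03.

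Of the 25 tested naive pluripotency genes 10 had a positive difference, 1 a negative one and 14 did not pass. Their median change was -0.05 in the GSK3α line and 0.10 in the GSK3β line. Besides Tfcp2l1, Klf4 and Klf2, positive differences were found in Klf5 (changes of -0.21 and 0.35), the nuclear receptor genes Nr5a2 (-0.18 and 0.38) and Esrrb (-0.03 and 0.22), the epigenetic regulator Prdm14 (0.00 and 0.52), the T-box factor Tbx3 (-0.07 and 0.30), the methylcytosine oxidase Tet2 (-0.17 and 0.19) and Sall4 (-0.10 and 0.09), where the first value is the GSK3α line. The negative one was Fgf4, the growth factor that drives ERK signalling in these cells. The core factors Pou5f1 (-0.08), Sox2 (0.00) and Nanog (0.10) did not pass. The count of positive differences was 4 without the trend of the spread. Sall4 did not pass without αU2, αI1, αI2 or βI1 (adjusted p up to 0.142).

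In the list of LIF and STAT3 signalling, 3 of 14 genes had a positive and 1 a negative difference. Il6st, which encodes the shared receptor chain gp130, had 69.7 and 69.5 untreated and 66.6 and 67.8 with 3MB-PP1 in the GSK3α line, and 55.9 and 60.4 untreated and 91.4 and 87.2 with 3MB-PP1 in the GSK3β line, so that the lower start of the GSK3β line became the higher level (difference 0.66 ± 0.06, SE, adjusted p = 9.89e-07). Tfcp2l1 and Klf4 are also in this list, and the negative member was the kinase gene Pim3 (-0.29). Stat3 (0.19), Socs3 (0.00) and the LIF receptor gene Lifr (0.07) did not pass. Il6st passed in every alternative, and Pim3 did not pass without the trend of the spread.

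Of the 20 tested genes of the formative and primed epiblast, the later states toward which naive cells move, 18 fell in the GSK3β line and 4 in the GSK3α line. The shares that fell over all tested genes were 7.44% and 0.616%. Pou3f1, a POU factor of the primed epiblast, had 8.36 and 7.61 untreated and 8.53 and 7.32 with 3MB-PP1 in the GSK3α line, and 16.8 and 13.9 untreated and 5.46 and 6.15 with 3MB-PP1 in the GSK3β line. In the GSK3β line it went from above the GSK3α libraries to below them, a difference of -1.25 ± 0.14 (SE, adjusted p = 1.92e-05). Fgf5, a growth factor that marks the primed epiblast, was at low values of 2.402 and 2.47 untreated and 2.76 and 2.94 with 3MB-PP1 in the GSK3α line, and 4.53 and 3.94 untreated and 1.502 and 1.81 with 3MB-PP1 in the GSK3β line, with the same crossing and a difference of -1.14 ± 0.17 (SE, adjusted p = 0.000332). The de novo DNA methyltransferase Dnmt3a had 225 and 224 untreated and 224 and 222 with 3MB-PP1 in the GSK3α line, and 269 and 271 untreated and 199 and 205 with 3MB-PP1 in the GSK3β line. It fell by 0.42 in the GSK3β line and changed by -0.01 in the GSK3α line (difference -0.41 ± 0.04, SE, adjusted p = 4.69e-06).

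In this list 13 of 20 tested genes had a negative difference, 1 a positive one and 6 did not pass. The median difference was -0.31 against -0.01 over all tested genes, with median changes of -0.05 in the GSK3α line and -0.43 in the GSK3β line. Other members with a negative difference included Sall2 (-0.59), Dnmt3l, a partner of the methyltransferases (-0.34), Dnmt3b (-0.17), the epithelial factor Grhl2 (-0.50), the claudin Cldn6 (-0.47), Fgf15 (-0.65), Lef1 (-0.49), Otx2 (-0.25) and Sox4 (-0.27). Of these, Fgf15 and Otx2 fell in both lines. Fgf15, for example, had 8.41 and 9.895 untreated and 5.81 and 6.26 with 3MB-PP1 in the GSK3α line, and 16.01 and 13.01 untreated and 6.05 and 5.62 with 3MB-PP1 in the GSK3β line. Etv5, an ETS factor that is also a target of ERK, had the positive difference (0.26). The count of negative differences was 7 without αI2 and 5 without the trend of the spread. Lef1 did not pass without αU1, αI2, βU1 or βI1 (adjusted p up to 0.0714), nor did Fgf15 without αI2 or βU1 (0.0633), nor did Otx2 without αU1, αI1, αI2 or βI2 (0.0757), nor did Dnmt3b without αI1, αI2 or βI1 (0.1). Sox4 did not pass without αU2, αI1, αI2, βU1, βU2, βI1 or βI2 (adjusted p up to 0.157). Sox4 also did not pass with library medians set equal. Pou3f1, Dnmt3a and Sall2 passed in every alternative, and Fgf5 in all but that with a mean of at least 5, in which it was not tested. In bulk RNA, fewer cells of a state and less RNA per cell cannot be told apart.

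In 9 genes (0.0645% of those tested) the lines changed in opposite directions, each past the threshold. In 8 of them the gene fell in the GSK3α line and rose in the GSK3β line. The strongest of these by adjusted p was Id3, which encodes an inhibitor of helix-loop-helix factors induced by BMP signalling (chromosome 4, 136143497 to 136145755). Its values were 58.9 and 61.2 untreated and 52.2 and 51.9 with 3MB-PP1 in the GSK3α line, and 36.7 and 34.97 untreated and 55.99 and 58.2 with 3MB-PP1 in the GSK3β line. The lines started apart, with the GSK3β line lower by 0.73, and no library of either line overlapped between its treated and untreated group. The changes were -0.20 and 0.66, a difference of 0.86 ± 0.06 (SE, adjusted p = 6.25e-08). Its relative Id4 had changes of -0.19 and 0.71 (difference 0.89 ± 0.15, SE, adjusted p = 0.000857), of which that in the GSK3α line did not pass, and Id2 had 0.15 and -0.49 (-0.64). Id2 did not pass without αU1, αI2, βU1, βI1 or βI2 (adjusted p up to 0.107). Leaving out the trend of the spread kept Id3 past the threshold and ended the other calls given here.

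Nr5a2, a nuclear receptor that promotes Pou5f1 expression, had 70.4 and 67.8 untreated and 60.5 and 61.4 with 3MB-PP1 in the GSK3α line, and 52.8 and 51.2 untreated and 68.4 and 67.5 with 3MB-PP1 in the GSK3β line (difference 0.56 ± 0.06, SE, adjusted p = 3.48e-06). Mllt6, a chromatin factor fused to MLL in leukaemia, had 185 and 191 untreated and 166 and 172 with 3MB-PP1 in the GSK3α line, and 139 and 142 untreated and 173 and 177 with 3MB-PP1 in the GSK3β line (difference 0.47 ± 0.05, SE, adjusted p = 2.88e-06). Tet2 had 151 and 144 untreated and 128 and 135 with 3MB-PP1 in the GSK3α line, and 126 and 126 untreated and 145 and 144 with 3MB-PP1 in the GSK3β line (difference 0.36 ± 0.05, SE, adjusted p = 0.000194). In each of these genes the untreated GSK3β libraries were the lowest of all, and treatment moved the gap between the lines from -0.40 to 0.15 in Nr5a2, from -0.42 to 0.05 in Mllt6 and from -0.22 to 0.13 in Tet2. When the trend of the spread was left out, Nr5a2 and Mllt6 still passed and the other genes called here did not.

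Arid5b, a chromatin-bound ARID domain factor, had changes of -0.22 and 0.21 and the zinc finger gene Zfp654 of -0.21 and 0.19, again from a lower start in the GSK3β line (-0.54 and -0.27). E130012A19Rik differed from these in its start: its values were 244 and 244 untreated and 209.7 and 208 with 3MB-PP1 in the GSK3α line, and 287 and 281 untreated and 308 and 304 with 3MB-PP1 in the GSK3β line, so the lines moved apart (difference 0.33 ± 0.04, SE, adjusted p = 4.38e-05). Gm4782 is annotated as a processed pseudogene. It had 3.65 and 6.78 untreated and 1.89 and 1.78 with 3MB-PP1 in the GSK3α line. In the GSK3β line it had 1.71 and 3.97 untreated and 5.94 and 5.65 with 3MB-PP1. Its untreated replicates lay far apart in both lines, and the estimate was a difference of 1.97 ± 0.31 (SE, adjusted p = 0.000537). Of the differences that passed here, E130012A19Rik also passed without the trend of the spread.

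Fgf4 (chromosome 7, 144847367 to 144865243) was the gene that rose in the GSK3α line and fell in the GSK3β line. Its values were 232 and 228 untreated and 249.8 and 255 with 3MB-PP1 in the GSK3α line, and 267 and 256 untreated and 179 and 185 with 3MB-PP1 in the GSK3β line, and in neither line did the treated libraries overlap the untreated ones. The rise in the GSK3α line was 0.14 (adjusted p = 0.0497), at the edge of the threshold. The fall in the GSK3β line was 0.52, a difference of -0.66 ± 0.05 (SE, adjusted p = 5.2e-08). For the falls of the other genes in the GSK3α line, adjusted p was 0.0196 in Gm4782, 0.0297 in Mllt6, and 0.0304 in Id3 and Zfp654. It was 0.0311 in Tet2, 0.036 in Arid5b, 0.0365 in Nr5a2 and 0.000491 in E130012A19Rik. Apart from E130012A19Rik, the opposite calls thus rest on GSK3α changes not far inside the threshold. In the 17 alternative fits (16 for Gm4782) the signs of all these genes stayed opposite, and 5 of them, Id3, Nr5a2, Mllt6, E130012A19Rik and Fgf4, passed for the difference in every one. The tests within the lines did not hold as well: both lines passed in 12 of the 17 fits for Id3, 9 for Nr5a2, 13 for E130012A19Rik and 5 for Fgf4. In Id3, Nr5a2, Mllt6 and Fgf4 it was the change in the GSK3α line that did not pass in the others, whereas E130012A19Rik passed in 16 fits in the GSK3α line and in 13 in the GSK3β line. Without the trend of the spread 0 genes passed in both lines in opposite directions. Leaving out 1 library gave 1 such gene without either inhibitor replicate of the GSK3α line, 3 or 4 without an untreated replicate of that line, 5 without either inhibitor replicate of the GSK3β line, and 14 or 26 without an untreated replicate of that line.

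**Figure D3:**
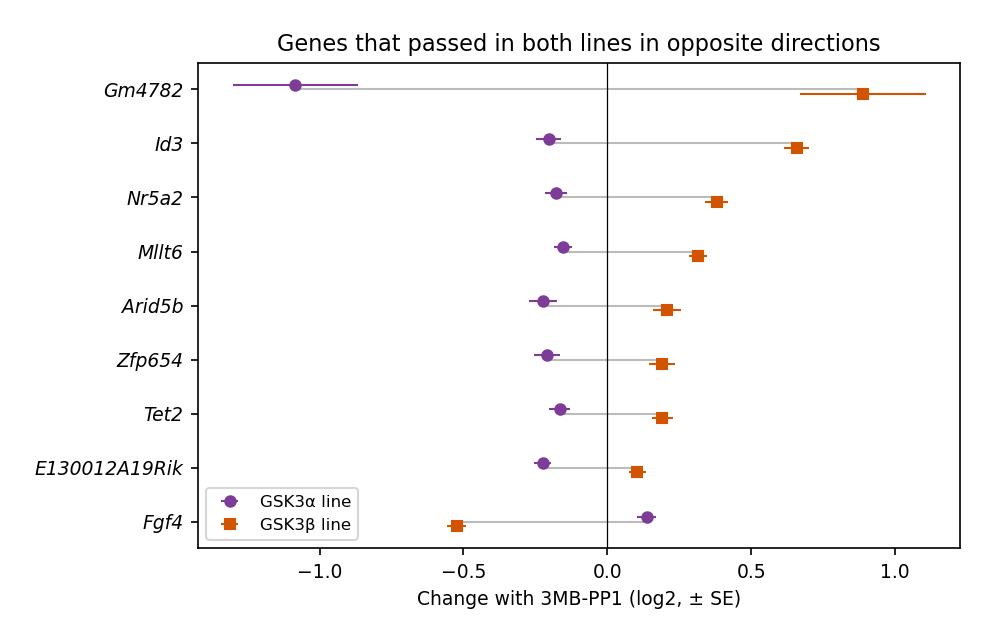
Change with 3MB-PP1 (log2, with SE) in the GSK3α line (circles) and the GSK3β line (squares) of the 9 genes that passed in both lines in opposite directions. Gm4782 had the widest errors, Fgf4 was the gene with the reversed orientation, and Id3 had changes of -0.20 and 0.66.

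The Nodal and ERK feedback genes Lefty1, Lefty2, Smad7, Dusp6, Spry4 and Dusp4 fell in both lines, and the lines differed in how far Lefty1, Dusp6 and Spry4 fell. Lefty1, a secreted inhibitor of Nodal that Nodal itself induces (chromosome 1, 180935022 to 180938400), had 21.7 and 20.95 untreated and 8.86 and 9.45 with 3MB-PP1 in the GSK3α line, and 54.9 and 51.8 untreated and 7.83 and 8.86 with 3MB-PP1 in the GSK3β line. The GSK3β line started higher, and with 3MB-PP1 the lines reached overlapping levels, which gave a difference of -1.40 ± 0.10 (SE, adjusted p = 6.25e-08), the deepest negative one among the named genes. Its neighbour Lefty2 had 49.4 and 44.9 untreated and 23.9 and 22.9 with 3MB-PP1 in the GSK3α line, and 98.3 and 97.2 untreated and 53.96 and 52.98 with 3MB-PP1 in the GSK3β line. The GSK3β line started higher here too, by 1.04, but the falls were -0.98 and -0.86 and the difference of 0.12 did not pass (adjusted p = 0.317, 95% interval -0.02 to 0.26, like all intervals here not adjusted over genes). Nodal did not pass without αI1, βU2, βI1 or βI2 (adjusted p up to 0.112). Spry4 also did not pass on a square-root scale. Leaving out the trend of the spread kept Lefty1 and Dusp6 past the threshold and ended the other calls given here.

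Of 19 tested genes of Nodal and SMAD feedback 4 had a negative difference, against 2.9% of all tested genes. Among them were Lefty1, the TGFβ feedback gene Pmepa1 (-0.50) and the SMAD co-repressor Skil (-0.24). Nodal itself had the positive one, with 116 and 117 untreated and 107 and 110.1 with 3MB-PP1 in the GSK3α line, and 138 and 129 untreated and 142 and 145 with 3MB-PP1 in the GSK3β line and changes of -0.10 and 0.11, neither past the threshold in its line. The inhibitory SMAD Smad7 fell by 0.62 and 0.79, with a difference of -0.17 that did not pass (95% interval -0.31 to -0.02). Nodal did not pass without αI1, βU2, βI1 or βI2 (adjusted p up to 0.112), nor did Skil without αU2, αI1, αI2, βU1 or βI1 (0.165). When the trend of the spread was left out, Lefty1 and Pmepa1 still passed and the other genes called here did not.

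Among 16 tested ERK feedback genes 3 had a negative difference and 2 a positive one. Dusp6, a phosphatase that inactivates ERK and is induced by it, had 52.6 and 55.7 untreated and 45.9 and 44.5 with 3MB-PP1 in the GSK3α line, and 51.1 and 49.3 untreated and 20.7 and 22.7 with 3MB-PP1 in the GSK3β line. All treated libraries lay below the untreated ones of their line, by 0.25 in the GSK3α line and 1.17 in the GSK3β line (difference -0.92 ± 0.07, SE, adjusted p = 2.12e-07). The ERK inhibitor Spry4 (-0.55 and -0.93) and the ephrin receptor gene Epha2 (-0.53 and -0.82) also fell in both lines, by more in the GSK3β line on the log2 scale, and neither difference passed on a square-root scale. Dusp4, another ERK phosphatase gene, fell in both lines with no difference that passed (-0.36 and -0.32, difference 0.04, 95% interval -0.18 to 0.27). Epha4 went the other way, with 57.1 and 54.5 untreated and 51.96 and 53.4 with 3MB-PP1 in the GSK3α line, and 40.8 and 41.4 untreated and 66.2 and 63.4 with 3MB-PP1 in the GSK3β line (difference 0.73 ± 0.06, SE, adjusted p = 3.92e-07), as did Etv5 with changes of -0.05 and 0.21. Among 20 immediate early genes 4 had a negative difference, Klf6 (-0.53), Mcl1 (-0.22), Btg2 (-0.24) and Jund (-0.25), and Klf10 had a positive one (0.28). Klf10 did not pass without βI1 (adjusted p up to 0.0505), nor did Btg2 without βI1 (0.0906), nor did Jund without αI1, αI2, βU1, βI1 or βI2 (0.0766). Without the trend of the spread, Dusp6 and Epha4 passed and the other differences named here did not.

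Of the 36 tested genes of cholesterol and fatty acid synthesis, 9 rose in the GSK3α line, and 5 rose and 4 fell in the GSK3β line. Over all tested genes, 0.265% rose in the GSK3α line, and 7.49% rose and 7.44% fell in the GSK3β line. Cyp51, the lanosterol demethylase (chromosome 5, 4081145 to 4104746), had 72.7 and 77.2 untreated and 92.9 and 93.03 with 3MB-PP1 in the GSK3α line, and 98.2 and 93.6 untreated and 90.7 and 94.3 with 3MB-PP1 in the GSK3β line. The untreated GSK3α libraries were the lowest, and with 3MB-PP1 they reached the level of the GSK3β line, a difference of -0.36 ± 0.06 (SE, adjusted p = 0.000516). Insig1, which holds the SREBP factors in the endoplasmic reticulum and is itself their target, had 137 and 136 untreated and 165 and 159 with 3MB-PP1 in the GSK3α line, and 169 and 160.2 untreated and 151 and 158 with 3MB-PP1 in the GSK3β line. Here too the gap went from 0.27 to -0.07 after treatment (difference -0.34 ± 0.05, SE, adjusted p = 0.000312). Hmgcs1, the synthase that makes HMG-CoA, had 444 and 441 untreated and 495 and 497 with 3MB-PP1 in the GSK3α line, and 400.1 and 379.7 untreated and 365 and 371 with 3MB-PP1 in the GSK3β line. In this gene the GSK3α line started higher and the lines moved apart (difference -0.25 ± 0.04, SE, adjusted p = 0.00117). The calls given here ended when the trend of the spread was left out.

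Of 36 tested genes of cholesterol and fatty acid synthesis 11 had a negative difference and the others did not pass. The median difference was -0.11, with median changes of 0.09 in the GSK3α line and 0.00 in the GSK3β line. Besides Cyp51, Insig1 and Hmgcs1 they included Idi1 (-0.29), Fdft1 (-0.18), Lss (-0.24), Tm7sf2 (-0.51), Msmo1 (-0.32), Dhcr7 (-0.35) and Acat2, which makes the first intermediate (-0.23). The epoxidase gene Sqle (0.02) did not pass. The count of negative differences was 5 without αI1 and 0 without the trend of the spread. Dhcr7 did not pass without αI1 (adjusted p up to 0.0564), nor did Lss without αI1 (0.0589), nor did Msmo1 without αI2 (0.0547), nor did Fdft1 without αU1, αI1, βU1, βI1 or βI2 (0.189). Tm7sf2 did not pass without αU1, αI1, αI2, βU1 or βI1 (adjusted p up to 0.264), nor did Acat2 without αI1 (0.0558). Fdft1 also did not pass with library medians set equal. Tm7sf2 also did not pass with a pseudocount of 0.1, with no filter on the mean, with library medians set equal or after quantile normalization.

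The promoter of Hmgcs1 is shown because it was the 1 member of this list, of 25 with a window, that held the sterol element TCACNCCAC on either strand. The element was in 1.24% of all windows and in those of 1.48% of the tested genes with one. The window lies at chr13:119690101-119690400 on the plus strand (RefSeq, GRCm38.p6), and capitals mark the match, 137 bases before the start. No match in the other windows says only that these letters were not in them.
Hmgcs1: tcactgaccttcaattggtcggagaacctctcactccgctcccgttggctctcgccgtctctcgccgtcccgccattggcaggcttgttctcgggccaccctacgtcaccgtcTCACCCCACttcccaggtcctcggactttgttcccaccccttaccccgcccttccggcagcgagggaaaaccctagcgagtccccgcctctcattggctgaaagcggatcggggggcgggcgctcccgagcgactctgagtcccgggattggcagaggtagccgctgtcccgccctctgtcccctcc

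The other genes that rose past the threshold in the GSK3α line alone, with a difference that passed, were Nfil3, Bmf, Azin2, Rps6ka4, Cldn4, E2f1, Nfkbia and H1f0, beside Cyp51, Dhcr7, Insig1, Msmo1, Hmgcs1 and Lss. Bmf, a pro-apoptotic BH3 gene, had 29.98 and 30.9 untreated and 39.97 and 36.8 with 3MB-PP1 in the GSK3α line, and 30.4 and 30.5 untreated and 26.7 and 29.01 with 3MB-PP1 in the GSK3β line (difference -0.45 ± 0.08, SE, adjusted p = 0.00149). Azin2, a regulator of polyamine synthesis, had 24.3 and 25.1 untreated and 30.1 and 31.7 with 3MB-PP1 in the GSK3α line, and 25.2 and 26.4 untreated and 23.3 and 24.2 with 3MB-PP1 in the GSK3β line (difference -0.43 ± 0.08, SE, adjusted p = 0.00224). In both, the treated GSK3α libraries were above all the others. Nfil3, a bZIP repressor of the clock, went from 4.94 and 5.49 to 8.2004 and 7.93 in the GSK3α line and from 6.29 and 7.56 to 7.39 and 7.01 in the GSK3β line (difference -0.49 ± 0.14, SE, adjusted p = 0.041). E2f1 did not pass without αU2, αI1, αI2, βU1, βI1 or βI2 (adjusted p up to 0.144), nor did Nfil3 without αU1, αI1, αI2, βU2, βI1 or βI2 (0.143), nor did Rps6ka4 without αU2, αI1, αI2 or βI2 (0.0963), nor did Dhcr7 without αI1 (0.0564). Cldn4 did not pass without βI1 (adjusted p up to 0.0621), nor did Lss without αI1 (0.0589), nor did Msmo1 without αI2 (0.0547), nor did Nfkbia without αU2, αI1, αI2, βU1 or βI1 (0.179). Nfil3 also did not pass with no filter on the mean or after quantile normalization. Leaving out the trend of the spread ended each of these calls.

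The genes that fell in the GSK3α line alone were Lars2, Gm26917, Gm42418, Slain2, Apela, Gm13051, Tmem64, Tiparp, Bclaf1, Zdbf2, Kdm3a and Gsk3a. Lars2, Gm26917 and Gm42418 are known to collect reads of ribosomal RNA: their changes were -0.34, -0.28 and -0.34 in the GSK3α line against 0.12, 0.07 and 0.00 in the GSK3β line, and all 3 differences passed. Lars2 itself had 2307 and 1917 untreated and 1689 and 1637 with 3MB-PP1 in the GSK3α line, and 1695 and 1978 untreated and 2079 and 1918 with 3MB-PP1 in the GSK3β line. Whether the falls of these 3 genes had a part in the results above was not tested. Apela, a peptide hormone of stem cells, went from 30.6 and 29.1 to 24.7 and 24.5 in the GSK3α line and from 37.4 and 35.1 to 35.8 and 36.7 in the GSK3β line. Tiparp, a target of the aryl hydrocarbon receptor, had changes of -0.23 and 0.02. Gsk3a did not pass without αU2, αI1, αI2, βI1 or βI2 (adjusted p up to 0.104), nor did Gm42418 without αU1, αU2, αI1, βU1, βU2 or βI1 (0.219), nor did Apela without αU1, αI1, αI2, βU2, βI1 or βI2 (0.106), nor did Kdm3a without αI1 or βI1 (0.0565). Tiparp did not pass without αI1 (adjusted p up to 0.0669), nor did Zdbf2 without αU1, αI1, βI1 or βI2 (0.139). Lars2 also did not pass after quantile normalization. Gm42418 also did not pass with no filter on the mean. Of the genes that passed in the GSK3α line alone, 0 passed without the trend of the spread, a fit in which 3 genes passed in that line.

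Of 35 tested targets of ATF4, a bZIP factor that answers to amino acid shortage and stress, 23 rose and 3 fell in the GSK3β line, against 4 and 0 in the GSK3α line. Over all tested genes, 7.49% rose and 7.44% fell in the GSK3β line, against 0.265% and 0.616% in the GSK3α line. Asns, which makes asparagine, had 394 and 407 untreated and 404 and 394 with 3MB-PP1 in the GSK3α line, and 302 and 310.0 untreated and 414 and 393 with 3MB-PP1 in the GSK3β line. The GSK3β line started lower and met the other line after treatment, a difference of 0.40 ± 0.04 (SE, adjusted p = 1.39e-05), and passed in every alternative. Slc7a1, a transporter of cationic amino acids, had 109 and 113 untreated and 114 and 116 with 3MB-PP1 in the GSK3α line, and 110.0 and 122 untreated and 159 and 152 with 3MB-PP1 in the GSK3β line (difference 0.37 ± 0.06, SE, adjusted p = 0.000618). Ddit3, which encodes the stress factor CHOP, had 8.41 and 9.61 untreated and 11.8 and 10.3 with 3MB-PP1 in the GSK3α line, and 11.8 and 12.2 untreated and 21.8 and 20.8 with 3MB-PP1 in the GSK3β line (difference 0.51 ± 0.12, SE, adjusted p = 0.0124). Ddit3 did not pass without αU2, αI2 or βI1 (adjusted p up to 0.081). Of the differences that passed here, Asns also passed without the trend of the spread.

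Of 35 tested ATF4 targets 9 had a positive and 3 a negative difference, and the median changes were 0.07 in the GSK3α line and 0.23 in the GSK3β line. The other positive ones were Nupr1 (0.65), Psat1 of serine synthesis (0.22), the tRNA synthetase genes Aars (0.23), Sars (0.23) and Nars (0.15), and Aldh18a1 of proline synthesis (0.21). The negative ones were Cth, which makes cysteine (-0.25), the transporter gene Slc7a3 (-0.17) and Ddit4, an inhibitor of mTORC1 (-0.27). Chac1, a glutathione-degrading enzyme, rose in both lines with 6.14 and 6.85 untreated and 10.8 and 10.6 with 3MB-PP1 in the GSK3α line, and 6.37 and 6.31 untreated and 14.5 and 12.9 with 3MB-PP1 in the GSK3β line. Its changes were 0.65 and 0.998, and the difference of 0.35 did not pass (95% interval 0.09 to 0.61). The pseudokinase gene Trib3 rose by 0.35 and 0.56, with a difference of 0.20 that did not pass either. The count of positive differences was 3 without αI2 or βI1 and 1 without the trend of the spread. Psat1 did not pass without αI2 or βI1 (adjusted p up to 0.0824), nor did Aldh18a1 without αU1, αU2, αI1, αI2, βU1, βI1 or βI2 (0.207), nor did Slc7a3 without αU1, αI1 or βI1 (0.138), nor did Ddit4 without αI1, αI2, βU1 or βI1 (0.138). Nupr1 did not pass without αI2 or βI1 (adjusted p up to 0.081), nor did Sars without αI2 or βI1 (0.0729), nor did Nars without αU1, αU2, αI1, αI2, βU1, βI1 or βI2 (0.207). Aldh18a1 also did not pass with no filter on the mean, on a square-root scale or after quantile normalization. Nars also did not pass with no filter on the mean or after quantile normalization. Of 20 genes of the unfolded protein response the lowest adjusted p was 0.0585, in Sdf2l1, with a difference of -0.29 that did not pass.

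The promoter of Asns is shown because the composite element of CHOP and ATF4 was frequent in this list: TGATGNAA on either strand was in 11 of 29 genes with a window (37.9%), against 2.59% of tested genes and 3.97% of all windows. The list was made of known targets, so this share describes how it was drawn up. The window lies at chr6:7693160-7693459 on the minus strand (RefSeq, GRCm38.p6), and capitals mark the match, 23 bases before the start.
Asns: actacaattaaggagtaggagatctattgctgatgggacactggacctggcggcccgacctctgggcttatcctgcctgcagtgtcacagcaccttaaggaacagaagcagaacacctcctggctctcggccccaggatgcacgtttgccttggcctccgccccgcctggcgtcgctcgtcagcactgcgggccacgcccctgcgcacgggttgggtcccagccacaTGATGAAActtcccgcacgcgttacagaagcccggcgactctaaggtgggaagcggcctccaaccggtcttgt

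**Figure D4:**
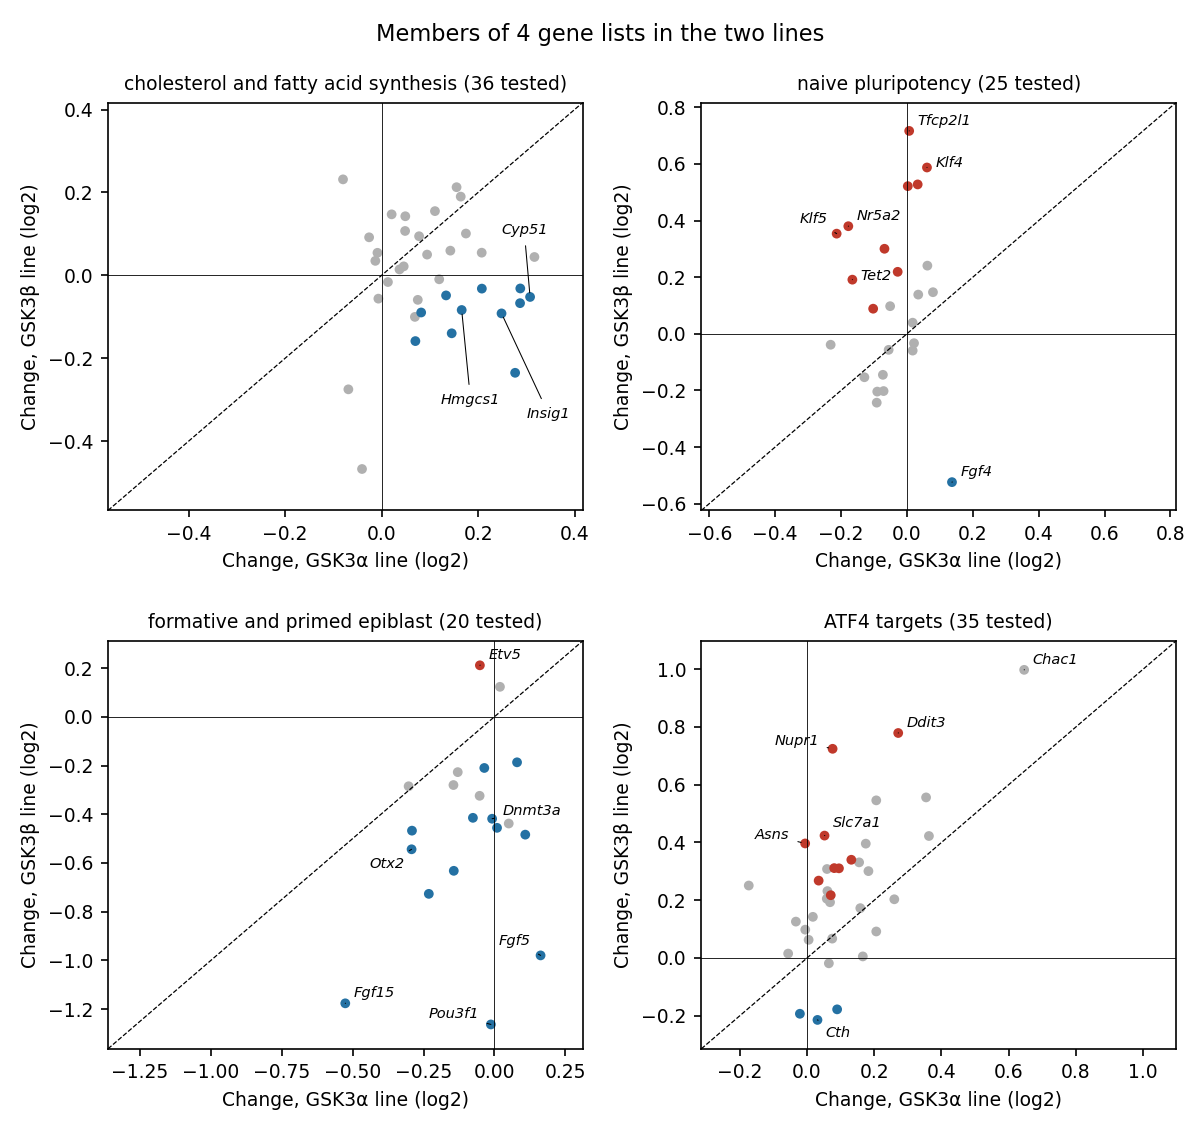
Change with 3MB-PP1 (log2) in the GSK3α line (horizontal axis) and the GSK3β line (vertical axis) of the tested members of 4 gene lists, with red for a more positive and blue for a more negative change in the GSK3β line past the threshold, grey for the others and a dashed line for equal changes. The 11 blue members of cholesterol and fatty acid synthesis lie to the right of 0, the 10 red naive members lie above 0, and 13 of 20 formative and primed members lie below the dashed line in blue.

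Among targets of p53 and FOXO, single genes differed strongly and in both directions. Cdkn1a, the inhibitor of cyclin-dependent kinases p21 (chromosome 17, 29090976 to 29100727), had 70.1 and 71.8 untreated and 62.5 and 59.2 with 3MB-PP1 in the GSK3α line, and 41.6 and 36.4 untreated and 76.5 and 72.2 with 3MB-PP1 in the GSK3β line. In the GSK3β line it rose from the lowest level to the highest, whereas the GSK3α libraries were somewhat lower after treatment, a difference of 1.14 ± 0.07 (SE, adjusted p = 4.84e-08). Sgk1, a kinase related to AKT and induced by serum and steroids, had 88.98 and 89.2 untreated and 84.5 and 84.04 with 3MB-PP1 in the GSK3α line, and 106 and 114 untreated and 205 and 198 with 3MB-PP1 in the GSK3β line, and this difference had the lowest adjusted p of the named genes, 0.95 ± 0.05 (SE, 4.88e-09). Ccng2, an unconventional cyclin repressed by growth signals, had 18.9 and 18.9 untreated and 16.03 and 16.9 with 3MB-PP1 in the GSK3α line, and 21.2 and 19.7 untreated and 10.3 and 10.5 with 3MB-PP1 in the GSK3β line and went down in the GSK3β line (difference -0.72 ± 0.09, SE, adjusted p = 7.87e-05).

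Over all tested genes 3.62% had a positive and 2.9% a negative difference. Of 23 tested p53 targets 2 had a positive difference, Cdkn1a and Tigar (0.30), and 4 a negative one, Ccng2, the pro-apoptotic Bbc3 (-0.44), Btg2 (-0.24) and Eda2r (-0.23). Of 24 tested genes of FOXO and insulin signalling Sgk1 had a positive difference and 4 had a negative one, among them Ccng2, Gadd45g (-1.26) and Cited2 (-0.41). Gadd45g, a stress-induced growth arrest gene, had 4.09 and 2.98 untreated and 5.07 and 5.32 with 3MB-PP1 in the GSK3α line, and 9.97 and 7.92 untreated and 3.903 and 5.63 with 3MB-PP1 in the GSK3β line. The changes had opposite signs, but that of 0.46 in the GSK3α line did not pass (adjusted p = 0.166). Cdkn1c, the imprinted relative of Cdkn1a, had 19.1 and 17.3 untreated and 20.9 and 19.8 with 3MB-PP1 in the GSK3α line, and 31.5 and 25.2 untreated and 16.3 and 16.4 with 3MB-PP1 in the GSK3β line and thus fell in the GSK3β line while Cdkn1a rose (difference -0.91 ± 0.12, SE, adjusted p = 5.65e-05). Btg2 did not pass without βI1 (adjusted p up to 0.0906), nor did Eda2r without αI2 or βI1 (0.0908). Cdkn1a, Sgk1 and Ccng2 passed in every alternative, and the other differences named here ended without the trend of the spread.

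Of 28 tested genes of the G2 phase and mitosis 21 fell in the GSK3β line, while the fit called 0 in the GSK3α line, where the median change was -0.02. The shares that fell over all tested genes were 7.44% in the GSK3β line and 0.616% in the GSK3α line. The difference was negative in 27 of 28 tested genes, against 7538 of all 13959 tested genes, with a median of -0.10. It passed in 5: the phosphatase gene Cdc25b (-0.35), the cyclins Ccnb1 (-0.18) and Ccnb2 (-0.18), the kinase Aurkb (-0.20) and Nusap1 (-0.18). Cdc25b had 48.4 and 45.6 untreated and 48.3 and 52.7 with 3MB-PP1 in the GSK3α line, and 52.6 and 50.8 untreated and 43.3 and 43.3 with 3MB-PP1 in the GSK3β line. The count was 1 without βI1, 2 without αU2, 3 without αI1, αI2 or βU1, 8 without βU2 and 0 without the trend of the spread, and 11 after quantile normalization. Among 30 genes of the G1/S transition 2 (6.67%) had a difference that passed, against 6.53% of all tested genes. Both were negative, Rrm1 (-0.19) and E2f1 (-0.27). In the MYC network 3 of 12 had a negative difference, Myc itself and the MAX partners Mxd4 (-0.47) and Mxd3 (-0.57). Without the trend of the spread 0 genes passed in the G1/S list and 0 in the MYC network. Myc did not pass without αU1, αI2 or βI1 (adjusted p up to 0.109), nor did Mxd4 without αI1 or βI1 (0.08), nor did Mxd3 without αI1, βU1 or βI1 (0.0905), nor did Ccnb1 without βI1 (0.0643). Aurkb did not pass without αU2, αI1 or βI1 (adjusted p up to 0.152), nor did Nusap1 without αU2, αI1, αI2, βU1 or βI1 (0.208), nor did Rrm1 without αI1, αI2 or βI1 (0.132), nor did E2f1 without αU2, αI1, αI2, βU1, βI1 or βI2 (0.144). Ccnb2 did not pass without αU2, αI2, βU1, βI1 or βI2 (adjusted p up to 0.175). Myc also did not pass on a square-root scale. Ccnb2 also did not pass with library medians set equal.

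Of 12 tested neural markers 4 had a positive and 1 a negative difference, and 1 of them, Nefm, was among the 15 largest positive differences. Nefm, the medium neurofilament (chromosome 14, 68082590 to 68124846), had 10.1 and 8.799 untreated and 8.74 and 8.29 with 3MB-PP1 in the GSK3α line, and 9.67 and 9.94 untreated and 23.9 and 24.1 with 3MB-PP1 in the GSK3β line. Only the treated GSK3β libraries stood apart, a difference of 1.34 ± 0.11 (SE, adjusted p = 3.92e-07). Nefl, the light neurofilament, had 27.6 and 26.7 untreated and 27.996 and 30.4 with 3MB-PP1 in the GSK3α line, and 38.9 and 39.3 untreated and 59.1 and 55.9 with 3MB-PP1 in the GSK3β line (difference 0.44 ± 0.07, SE, adjusted p = 0.000818), Nes had 22.5 and 21.5 untreated and 21.4 and 21.7 with 3MB-PP1 in the GSK3α line, and 21.4 and 23.2 untreated and 33.6 and 30.99 with 3MB-PP1 in the GSK3β line (difference 0.54 ± 0.09, SE, adjusted p = 0.000584), and Tubb3 had changes of 0.15 and 0.52 (0.37). The negative difference was in Stmn2 (-0.23). The summed values of the list were 386.1 to 392.2 untreated and 416.3 to 420.1 treated in the GSK3α line, and 480.8 to 484.8 and 557.4 to 570.5 in the GSK3β line. The neural transcription factor Sox1 (-0.43) did not pass, and Neurog2, Hes5 and Dcx had no values, which does not show that they were absent. Stmn2 did not pass without αI1 (adjusted p up to 0.0639). Nefm and Nes passed in every alternative. Leaving out the trend of the spread kept Nefm and Nes past the threshold and ended the other calls given here.

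In the list of primitive endoderm markers 6 of 10 tested genes had a positive difference and 4 did not pass. The 6 encode proteins of the extracellular matrix. Col4a1, a chain of type IV collagen, had 204 and 206 untreated and 205 and 201 with 3MB-PP1 in the GSK3α line, and 154 and 182 untreated and 269 and 245 with 3MB-PP1 in the GSK3β line (difference 0.63 ± 0.08, SE, adjusted p = 3.09e-05), and Col4a2, which shares its promoter region, had 57.2 and 60.2 untreated and 59.4 and 57.6 with 3MB-PP1 in the GSK3α line, and 49.3 and 63.3 untreated and 97.2 and 89.3 with 3MB-PP1 in the GSK3β line (difference 0.73 ± 0.10, SE, adjusted p = 0.000201). The laminin chains Lama1 (0.49), Lamc1 (0.26) and Lamb1 (0.30) and the matrix protein gene Sparc (0.24) also had positive differences, as did fibronectin, Fn1 (0.28). Fn1 is not in the list of primitive endoderm markers. Defining factors of that cell type did not pass or were not tested: Gata4 had 5.56 and 5.104 untreated and 6.21 and 5.98 with 3MB-PP1 in the GSK3α line, and 4.105 and 3.94 untreated and 4.59 and 4.22 with 3MB-PP1 in the GSK3β line (-0.06, not passed), Dab2 had a difference of 0.00 that did not pass, Gata6, Sox7 and Sox17 had means under 1, and Foxa2 had no value. The missing value does not show that Foxa2 was absent. The summed values of the list were 863.1 to 883.3 in all libraries of the GSK3α line, and 894.2 to 967.9 untreated and 1168 to 1274 treated in the GSK3β line. Lamb1 did not pass without αI2 or βI1 (adjusted p up to 0.112), nor did Sparc without αU2, αI1, αI2, βU1 or βI1 (0.138). Without the trend of the spread 0 of the 6 passed.

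Markers of further cell types that such a culture could hold were also counted. Of 6 tested mesendoderm markers Evx1 had a positive difference (0.85) at values of 1.38 and 0.936 untreated and 0.736 and 0.688 with 3MB-PP1 in the GSK3α line, and 0.704 and 0.705 untreated and 1.68 and 1.24 with 3MB-PP1 in the GSK3β line. Of 10 trophoblast markers Tfap2c and Tead4 (0.47) did, both of which stem cells also express, while Elf5 had no value and Cdx2 a mean under 1. Of 6 fibroblast markers Fn1 did, and Col3a1, Dcn, Lum and Postn had no values. As with Elf5, the missing values do not show that these genes were absent. Of 14 markers of the 2-cell-like state 1 (7.14%) had a difference that passed, against 6.53% of all tested genes. It was Gm5662, with a negative difference (-0.42). Evx1 did not pass without αU1, αI1, αI2, βU1 or βI1 (adjusted p up to 0.154), nor did Gm5662 without αI1 or βI1 (0.081). With no trend of the spread, the genes called here did not pass. The mean of Evx1 would be under 1 without the treated GSK3β libraries. Its difference also passed with no filter on the mean.

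Several further genes with large positive differences are regulators found in stem and germ cells. Tfap2c, an AP-2 factor, had 44.04 and 44.96 untreated and 42.95 and 43.4 with 3MB-PP1 in the GSK3α line, and 22.7 and 28.3 untreated and 49.99 and 43.3 with 3MB-PP1 in the GSK3β line, which brought the lower GSK3β line to the level of the other (difference 0.89 ± 0.11, SE, adjusted p = 2.86e-05). Sall3, a zinc finger factor, had 23.7 and 26.2 untreated and 21.4 and 24.4 with 3MB-PP1 in the GSK3α line, and 30.5 and 34.1 untreated and 59.5 and 60.3 with 3MB-PP1 in the GSK3β line (difference 0.99 ± 0.09, SE, adjusted p = 1.37e-06). Spic, an ETS factor, had 2.61 and 2.07 untreated and 2.196 and 2.04 with 3MB-PP1 in the GSK3α line, and 3.57 and 3.09 untreated and 8.13 and 7.82 with 3MB-PP1 in the GSK3β line (difference 1.15 ± 0.17, SE, adjusted p = 0.000246). In Sall3 and Spic the treated GSK3β libraries were above all the others. Further positive ones were Mobp (1.03), Pla2g7 (1.002), the noncoding Platr13 (0.98) and the pseudogene Tmem181b-ps (0.95), and Gm28539 (1.30), whose replicates spread widely. Gm28539 did not pass without αU2, αI1, βU1 or βI2 (adjusted p up to 0.138). Sall3, Mobp and Platr13 passed in every alternative, and Spic in all but that with a mean of at least 5, in which it was not tested. When the trend of the spread was left out, Spic, Mobp, Sall3 and Platr13 still passed and the other genes called here did not.

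On the negative side, Slc16a3, which exports lactate, had 54.2 and 54.7 untreated and 54.5 and 54.7 with 3MB-PP1 in the GSK3α line, and 75.3 and 72.5 untreated and 38.3 and 42.4 with 3MB-PP1 in the GSK3β line (difference -0.86 ± 0.07, SE, adjusted p = 1.32e-07). Inhbb, a subunit of activin B, had 21.2 and 21.8 untreated and 17.8 and 18.3 with 3MB-PP1 in the GSK3α line, and 20.9 and 21.8 untreated and 9.85 and 10.3 with 3MB-PP1 in the GSK3β line (difference -0.78 ± 0.09, SE, adjusted p = 2.34e-05). In both, the treated GSK3β libraries were the lowest. Catip (-0.97) and the calcitonin gene Calca (-0.90) also passed in every alternative. Hspa1a, the inducible heat shock protein 70, had 5.17 and 6.16 untreated and 7.605 and 6.66 with 3MB-PP1 in the GSK3α line, and 6.99 and 6.53 untreated and 4.34 and 3.38 with 3MB-PP1 in the GSK3β line (difference -0.97 ± 0.16, SE, adjusted p = 0.001), the insulin-responsive glucose transporter gene Slc2a4 had a difference of -0.80, and the Notch ligand gene Dll1 one of -0.74. Rab43 (-1.04), Gm20605 (-0.82) and Gm12286 (-0.78) were negative with less stable calls. Rab43 did not pass without αU2, αI1, αI2, βU2 or βI2 (adjusted p up to 0.123), nor did Gm20605 without αU1, αI1, αI2, βU1 or βI1 (0.15), nor did Gm12286 without αU1, αI1, αI2, βU1, βI1 or βI2 (0.139), nor did Dll1 without αI1 or βI1 (0.0851). Of the differences that passed here, Catip, Calca, Slc16a3 and Inhbb also passed without the trend of the spread.

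Other pathways differed in single genes. Over all tested genes 3.62% had a positive and 2.9% a negative difference. Glycolysis and hypoxia genes had 4 positive and 2 negative differences of 30 tested. The glucose transporter gene Slc2a3 (0.33), the hexokinase gene Hk2 (0.35), the phosphofructokinase gene Pfkp (0.45) and Vegfa (0.40) were positive, and Slc16a3 and the mitophagy gene Bnip3 (-0.39) negative. Pfkp, for example, had 203 and 215 untreated and 196 and 198 with 3MB-PP1 in the GSK3α line, and 146 and 156 untreated and 206 and 186 with 3MB-PP1 in the GSK3β line. In the list of lysosome and autophagy 6 of 32 were positive: the autophagy kinase Ulk1 (0.43), the lysosomal enzymes Gaa (0.30), Ctsl (0.25) and Hexa (0.28), the GTPase Rragd (0.29) and Tfe3, a master factor of lysosomal genes (0.21). That count was 2 without βI1 and 0 without the trend of the spread. Of 23 YAP and SRF genes Tead4 and Tead1 (0.27) were positive and Ajuba (-0.23) was negative. Ctsl did not pass without αI1 or βI1 (adjusted p up to 0.0728), nor did Tfe3 without αU2, αI2 or βI1 (0.0643), nor did Ajuba without αI2 or βI1 (0.0783), nor did Vegfa without αI2, βU1 or βI1 (0.135). Hexa did not pass without αU1, αI2, βU1 or βI1 (adjusted p up to 0.148), nor did Rragd without αU1, αI1, βU2, βI1 or βI2 (0.124). Without the trend of the spread, Slc16a3 passed and the other differences named here did not.

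Further lists are set beside the 3.62% of all tested genes with a positive and the 2.9% with a negative difference. They were heat shock with 1 positive (Bag3, 0.41) and 2 negative (Hspa1a and Hspe1, -0.15) of 16, NRF2 targets with 2 negative of 19 (Nqo1, -0.29, and Fth1, -0.17), nucleolar ribosome biogenesis with 2 positive of 28 (Tcof1, 0.19, and Rrp9, 0.18), Notch with 2 negative of 13 (Dll1 and Hes6, -0.45), Hedgehog with 1 positive of 12 (Hhip, 0.53), and sirtuins and circadian genes with 1 of 19 in each direction (Clock, 0.28, and Nfil3). In the nucleolar list the estimate was positive in 26 of 28 genes, against 6421 of all 13959 tested genes, with a median of 0.08. The 2 nucleolar calls became 0 without αU2, αI1, αI2, βU1 or βI1, 1 without βI2 and 0 without the trend of the spread, and 0 after quantile normalization. Dll1 did not pass without αI1 or βI1 (adjusted p up to 0.0851), nor did Bag3 without βI1 (0.0505), nor did Hspe1 without αU1, αI1, αI2, βU1, βI1 or βI2 (0.215), nor did Nqo1 without αI2 or βI1 (0.0748). Fth1 did not pass without αU1, αI1, αI2, βU1, βI1 or βI2 (adjusted p up to 0.11), nor did Tcof1 without αU2, αI1, αI2, βU1, βI1 or βI2 (0.14), nor did Rrp9 without αU1, αU2, αI1, αI2, βU1 or βI1 (0.248), nor did Hes6 without αI2, βU1 or βI1 (0.0655). Hhip did not pass without αU1, αU2, αI1, αI2, βU1, βI1 or βI2 (adjusted p up to 0.157), nor did Clock without αU1, αI1, αI2, βU1, βI1 or βI2 (0.148), nor did Nfil3 without αU1, αI1, αI2, βU2, βI1 or βI2 (0.143). Hspe1 also did not pass with library medians set equal. Tcof1 also did not pass after quantile normalization. Rrp9 and Nfil3 also did not pass with no filter on the mean or after quantile normalization. Hhip also did not pass with no filter on the mean. Without the trend of the spread, Hes6 passed and the other differences named here did not.

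**Figure D5:**
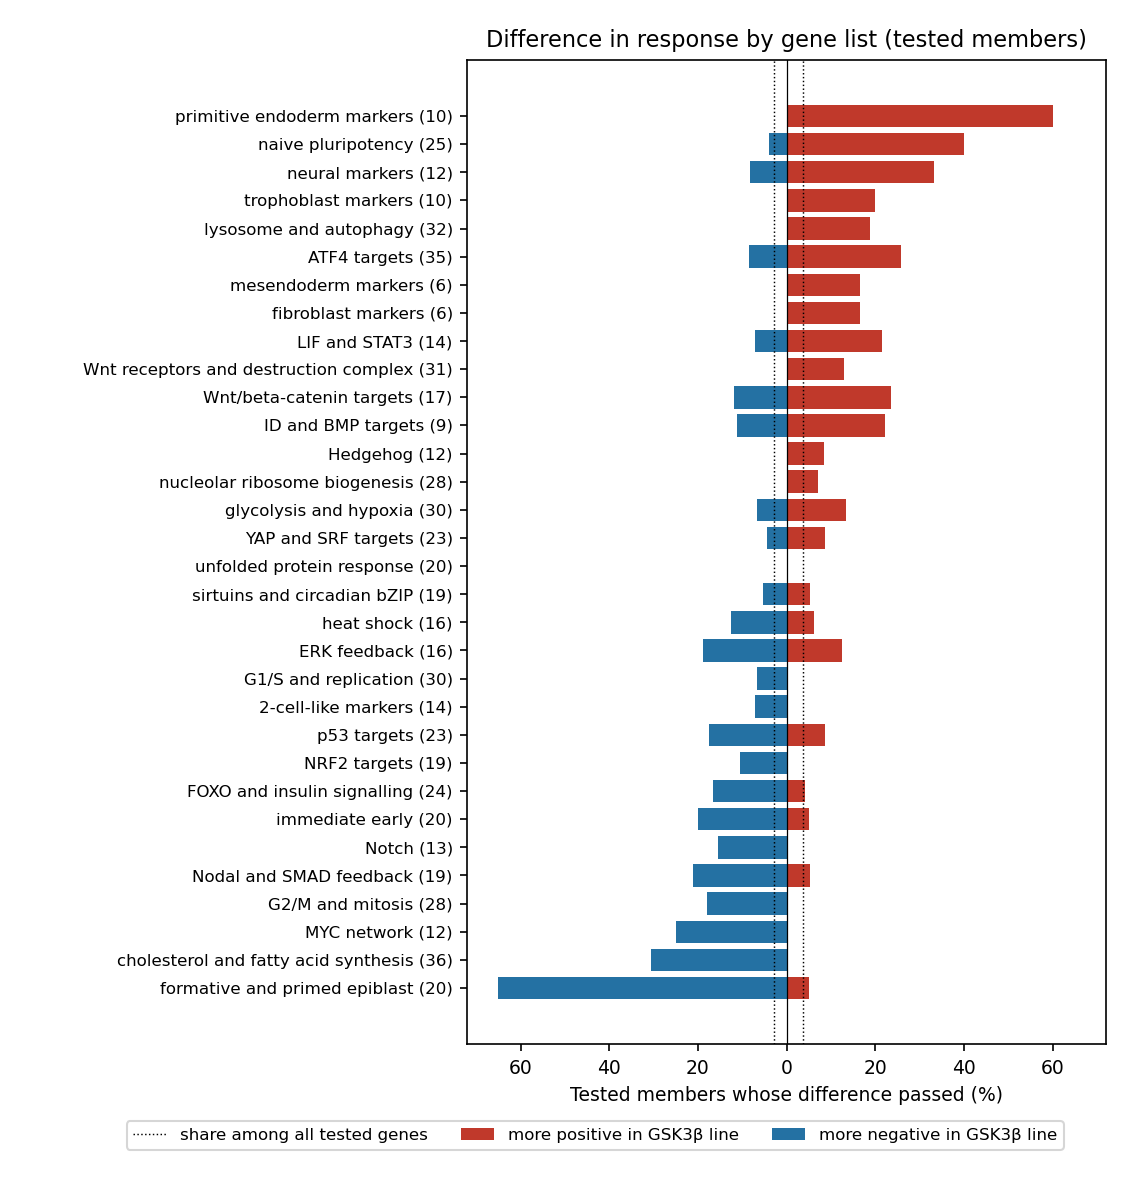
Share of the tested members of each gene list with at least 5 tested members (number in parentheses) whose response differed between the lines, in percent, with red bars to the right for a more positive and blue bars to the left for a more negative change in the GSK3β line. Dotted lines mark the shares among all tested genes, 3.62% and 2.9%; formative and primed genes reach furthest to the left with 13 of 20 members and primitive endoderm markers furthest to the right with 6 of 10.

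The lines differed before treatment, which bears on what a difference in response does to their levels. Untreated, 6723 of the 13959 tested genes differed between the lines (48.2%), and treated, 6833 did (49%). Among the 911 genes with a difference in response, 281 differed between the untreated lines and not between the treated ones, as Tfap2c did with a gap of -0.79 untreated and 0.10 treated. Another 277 differed between the treated lines alone, as Axin2 did with gaps of 0.07 and 1.43. In 110 the sign of the gap turned, as in Pou3f1 (0.86 and -0.39), and in 243 it kept its sign and passed at both times. The gap was smaller after treatment in 442 genes and larger in 469. The difference in response is the treated gap minus the untreated gap, from the same libraries. Selecting genes by it favours a gap before or after treatment, and 0 of the 911 lacked both. This split was not taken over all tested genes, so it describes the selected genes only.

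Some genes changed in both lines with no difference that passed. Besides Lefty2, Smad7, Dusp4, Chac1 and Trib3, these were Trim36 (falls of 0.55 and 0.78, interval of the difference -0.48 to 0.02), Fjx1 (0.47 and 0.31, -0.05 to 0.38), and the rising genes Lrtm2 (0.56 and 0.41, -0.48 to 0.16), Rab3a (0.50 and 0.36, -0.46 to 0.19) and the amino acid transporter gene Slc1a4 (0.36 and 0.42, -0.18 to 0.30). In all, 67 genes passed in both lines, 58 of them in the same direction, and of these 14 differed in size. All 14 fell in both lines, by more in the GSK3β line, and they included Lefty1, Dusp6, Fgf15, Spry4, Myc, Bcar1, Slc7a7, Epha2, Otx2, Skil, Ajuba, Msantd2 and Slc20a1. Bcar1, an adaptor of integrin signalling, had 69.9 and 71.2 untreated and 61.9 and 63.6 with 3MB-PP1 in the GSK3α line, and 86.9 and 90.004 untreated and 59.9 and 61.3 with 3MB-PP1 in the GSK3β line (difference -0.37 ± 0.05, SE, adjusted p = 0.000253), and Slc7a7, an amino acid transporter gene, had changes of -0.25 and -0.55. Myc did not pass without αU1, αI2 or βI1 (adjusted p up to 0.109), nor did Ajuba without αI2 or βI1 (0.0783), nor did Fgf15 without αI2 or βU1 (0.0633), nor did Msantd2 with any 1 library left out (0.2). Otx2 did not pass without αU1, αI1, αI2 or βI2 (adjusted p up to 0.0757), nor did Skil without αU2, αI1, αI2, βU1 or βI1 (0.165), nor did Slc20a1 without αI2 (0.0588). Myc, Epha2 and Spry4 also did not pass on a square-root scale. Msantd2 also did not pass with a pseudocount of 5, with no filter on the mean, on a square-root scale or with library medians set equal. Leaving out the trend of the spread kept Lefty1, Dusp6 and Bcar1 past the threshold and ended the other calls given here.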

How the data were processed

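RNA was sequenced in 8 libraries (TruSeq RNA kit). The submitters' processing notes name TopHat2, Partek and the mouse build mm10, with no role or version. The deposited values are 1 per gene and library, a signal scaled by the authors in a way not given in the sources used here. The value at the third quartile was equal in all libraries. The values are not whole counts, so no count model was used. Reads per library were estimated as the sum of the values divided by the smallest value, which was assumed to stand for 1 read. Between 63.5% and 67.6% of values up to 20 estimated reads lay within 0.1 of a whole number.

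Values were taken as log2(value + 1) for genes with values in all libraries and a mean of at least 1. One model over the 4 groups was fitted with limma 3.58.1 (R 4.3.3, package data.table, version 1.17.8), with a trend of the spread on the mean, and the difference in response is its interaction contrast. P-values were adjusted over 13959 genes by the method of Benjamini and Hochberg, with a threshold of 0.05. The 95% intervals and SEs come from the same fit. The fit was also run on simulated data in which the spread of every gene followed its mean level. That run therefore could not test the trend of the spread itself. 1 gene name was duplicated among the tested genes.

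Groups came from the sample titles. Named genes were Gsk3a, Gsk3b, Axin2, Sp5, Lefty1, Lefty2, Myc and Tfcp2l1, the 15 largest differences in each direction with a group mean of at least 5 and changes per library that did not overlap, genes that passed in both lines with opposite signs, up to 4 members of each list, the genes larger in the GSK3α line, and the 5 highest shared rises and 5 deepest shared falls. Further sets, the remaining genes of the smaller response classes and the remaining list members past the threshold, were chosen after their values were seen. The genes and lists were chosen with earlier results of these data known. Alternatives were other pseudocounts, filters, scales and normalizations, no trend, a replicate block, and leaving out each library. Positions are for mm10. Some genes of the lists are not reported here.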

Additional observations from a re-analysis of the deposited data

Results flagged for a closer look

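The response to 3MB-PP1 of 911 genes differed between the lines by a test of the difference itself. For 9 genes each line passed in the opposite direction. Their differences were 1.97 in Gm4782, 0.86 in Id3, 0.56 in Nr5a2, 0.47 in Mllt6, 0.43 in Arid5b, 0.40 in Zfp654, 0.36 in Tet2, 0.33 in E130012A19Rik and -0.66 in Fgf4, in log2 units. With 2 libraries in a group, no library could be tested for standing apart from its group.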

How the results depend on the processing

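The main counts were 911 genes that differed, 506 positive and 405 negative, 136 of at least 1.5-fold, 123 in the GSK3α line, 2084 in the GSK3β line and 9 opposite. Without the trend of the spread these were 133, 85, 48, 63, 3, 980 and 0. Genes of at least 1.5-fold numbered 54 with a pseudocount of 5 and 80 with a mean of at least 5. With library medians set equal, 606 were positive and 329 negative. Leaving out each library gave 353 to 1339 genes that differed (222 to 719 positive, 131 to 620 negative, 88 to 226 of at least 1.5-fold), 16 to 186 in the GSK3α line, 864 to 2277 in the GSK3β line and 1 to 26 opposite. Of 177 named genes that passed, 96 did so whichever library was left out and 34 under every alternative in which they were tested. Estimates that did not pass and changed sign were Lefty2 on a square-root scale (-0.55), Lrtm2 (-0.32 to 0.0056 over omitted libraries), Slc1a4 (-0.049 to 0.17) and Dusp4 (-0.054 to 0.14). The cause was not tested. A fit with the replicate block gave 831 genes. Deviations of libraries with the same number correlated at -0.0447 to 0.0271, so no shared effect of the number was visible across genes. The labels do not say whether libraries with the same number were handled together, and these values cannot settle it. With 2 libraries in a group, 1 line per paralog and scaled values in place of counts, small differences could have been missed.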
